A study of Mus musculus with 12 samples.

Results

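Peaks assigned to antisense transcripts were taken from the m6A peak lists of mouse lung, by the rule that the biotype of the transcript assigned to a peak was antisense, whatever the annotated region. The rule used no measured value. It found 1017 of 27292 peaks in the OVA list and 928 of 26102 peaks in the PBS list, or 1945 of 53394 peaks in all. These were 3.73% of the OVA list (95% Wilson interval 3.51 to 3.96) and 3.56% of the PBS list (3.34 to 3.79). Intervals given here cover counting error only.

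The lists came from methylated RNA immunoprecipitation sequencing (MeRIP-seq), in which RNA fragments bound by an m6A antibody (IP) are compared with the fragments before binding (input). Lungs of female BALB/c mice aged 6 to 8 weeks gave 12 libraries, an IP and an input library from each of 3 mice in each of the 2 groups. OVA mice received intraperitoneal ovalbumin with aluminum hydroxide adjuvant in PBS on days 0 and 7, and inhaled a 3% ovalbumin aerosol for 30 min daily on days 14 to 20. PBS mice received PBS alone by both routes, without the adjuvant, so ovalbumin and adjuvant cannot be told apart in any difference between the groups. Per the methods, lungs were collected after a bronchial provocation test with nebulized methacholine on day 21. Each group gave 1 list, with no value for a single mouse, so no difference between the lists has a replicate check. The lists hold no expression values, so the tissue label was not checked against marker genes.

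Antisense transcripts are read from the strand opposite to another gene, often a protein-coding one, and many are long non-coding RNAs. Some act on the gene they face or on its neighbours in the same chromosome domain, as imprinted antisense RNAs do when they silence genes on the chromosome that expresses them. N6-methyladenosine is placed on messenger and non-coding RNAs by a methyltransferase complex and is read by proteins that act on the decay, splicing and translation of the RNA.

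The deposited lists name a pair of genes for each peak. The called gene is the one on whose exon model the peak caller, exomePeak, found the peak, and the assigned gene is that of the transcript given by the annotation tool, ChIPseeker. The antisense biotype belongs to the assigned transcript. Whether reads were split by strand when peaks were called is not given in the sources used here, although the library preparation marked the strand with dUTP. Without strand, reads from a gene and from its antisense partner cannot be told apart, so the RNA that carries an antisense peak is uncertain wherever a gene lies on the other strand.

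The called and the assigned gene differed for 395 of the 1017 OVA antisense peaks (38.8%, 35.9 to 41.9) and for 381 of the 928 PBS antisense peaks (41.1%, 37.9 to 44.3). Over all peaks of the lists the shares were 22.5% and 22.8%. That left 622 OVA and 547 PBS peaks called on the antisense gene itself. The other called gene was protein-coding in RefSeq for 370 of these 395 peaks in OVA and 362 of 381 in PBS. It had no RefSeq entry for 11 peaks of each list. These peaks were spread over 303 different called genes in OVA and 295 in PBS.

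Peaks called on another gene fell into classes by position. Of the 395 OVA peaks, 151 overlapped the span of the assigned antisense transcript, and the strand of the called gene was known for 137 of them. That strand was opposite to the antisense transcript for 133 of the 137, and for 137 of 139 such peaks in PBS. The peaks of this class therefore lay on the model of the gene that the antisense transcript faces. The remaining 244 OVA and 232 PBS peaks lay outside the span of the assigned transcript, at a median distance of 12200 and 12900 bp from its start. The called gene was on the same strand as the assigned transcript for 222 of 222 in OVA and 216 of 216 in PBS where the strand was known. In this class the antisense transcript was a neighbour on the strand of the called gene, and the peak touched no base of the antisense transcript's span. With 49 OVA and 36 PBS peaks called on the antisense gene itself, 28.8% and 28.9% of the antisense peaks lay outside the span of their assigned transcript, against 41.2% and 42.3% of all peaks. Most of the outside peaks called on another gene were annotated as 3′ UTR, 199 of 244 in OVA and 189 of 232 in PBS.

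Peaks called on the antisense gene itself often had a counterpart on another gene in the same list. In OVA, 262 of the 622 (42.1%, 38.3 to 46.0) overlapped by at least 1 base a peak called on another gene, and in PBS 239 of the 547 did (43.7%, 39.6 to 47.9). The same share over all peaks called on their assigned gene was 7.55% and 7.56%. Antisense transcripts by definition face another gene, so a higher share than over all peaks follows in part from the rule that chose them. Where the strand was known, the other gene was on the opposite strand for 252 of 254 OVA peaks and 231 of 232 PBS peaks. Such pairs share at least 1 base and come from the same libraries, and most are given to opposite strands in the same list.

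The fold enrichments of counterparts with a large overlap, nearly all of them on opposite strands, lay close together. Fold enrichment is the ratio of IP to input signal at a peak, as computed by the peak caller. For 140 OVA pairs each peak covered at least 50% of the other, and the larger fold enrichment was a median of 1.05 times the smaller. It was within 1.5 times the smaller in 129 pairs (92.1%). For the 121 PBS pairs the median was 1.04 and 112 pairs (92.6%) were within 1.5 times. Pearson's r between the log2 fold enrichments was 0.95 over the 140 OVA pairs and 0.94 over the 121 PBS pairs, a description of points that share their libraries and most of their bases. The log10 p values of the paired peaks were within 1.5 times each other in 129 of the 140 OVA pairs and 107 of the 121 PBS pairs. For scale, peaks called on the same antisense gene in both lists and overlapping to the same extent numbered 333 from the OVA side, differed by a median of 1.37 times, and were within 1.5 times in 208 (62.5%). Pairs within a list share their libraries and pairs between lists do not, so these differences are not like for like. Where the overlap was smaller (122 OVA and 118 PBS pairs) the median difference was 1.61 and 1.78 times.

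Individual pairs show the values side by side. They were chosen after their values were seen, as those with the lowest p among pairs in which each peak covered at least 50% of the other. Gm11747 had an OVA peak on chromosome 11 from 118445037 to 118454875 with a fold enrichment of 39.2, and a peak called on C1qtnf1, which codes for a secreted C1q and tumor necrosis factor-related protein on the opposite strand, had 33.1. The PBS values of the same genes were 23.4 and 23.1. At Gm16054, which faces the adhesion receptor gene Adgrl3 on chromosome 5, the values were 16.0 for the antisense gene and 16.2 for Adgrl3 in OVA. In PBS they were 14.7 and 15.4, so both the antisense and the coding peak were lower there. Gm15491 faces Oga, whose product removes O-linked N-acetylglucosamine from proteins, and had 5.12 beside 5.05 in OVA and 5.75 beside 4.58 in PBS. Prss23os faces the serine protease gene Prss23, and its OVA peak on chromosome 7 from 89510006 to 89510714 had 16.8 beside 17.1 for Prss23. The PBS pair of Etohd2 and Tut7, a terminal uridylyltransferase gene, had 8.14 and 8.13. Gm14493 and Mid1ip1, a regulator of lipid synthesis, had 12.5 and 10.6 in OVA and 10.8 and 10.1 in PBS. A wider gap was seen at Gm11175, which faces the AP-1 transcription factor gene Jund on chromosome 8. Its own peak had 11.6 in OVA where the peak called on Jund, likewise assigned to Gm11175, had 17.7. In PBS these values were 9.55 and 17.8. Pairs with less overlap and a low p were further apart at some genes. Gm49643 and the potassium channel gene Kcnj15 had 10.8 and 13.5 in OVA and 9.58 and 19.3 in PBS. Gm40117 and Cttnbp2nl had 10.2 and 17.2 in OVA and 12.4 and 22.4 in PBS.

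Peaks called on another gene or overlapping one that was came to 657 of the 1017 OVA antisense peaks (64.6%) and 620 of the 928 PBS antisense peaks (66.8%). Neither held for 360 OVA peaks on 273 genes (35.4%, 32.5 to 38.4) and 308 PBS peaks on 237 genes (33.2%, 30.2 to 36.3). Over these peaks the antisense gene alone had a called peak in the list. Their median log10 p was -5.36 in OVA and -5.1 in PBS, against -18.9 and -22.3 for the peaks called on the antisense gene that overlapped a counterpart. Their median fold enrichment was 6.48 and 5.68, against 5.53 and 5.54.

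Antisense peaks without a counterpart, ordered by p after the values were seen, began in OVA with Panct2, Brip1os, Kcnq1ot1, A530020G20Rik and Rian. Panct2 had a peak on chromosome 1 from 96872536 to 96878507 with a fold enrichment of 12.3 and a log10 p of -541, and the overlapping PBS peak had 9.22. Brip1os, named for the gene of the BRCA1-interacting helicase BRIP1, had a peak on chromosome 11 from 86201369 to 86208507 with the same bounds in both lists, at 9.61 in OVA and 7.53 in PBS. Rian, a maternally expressed RNA of the imprinted Dlk1-Dio3 domain that hosts small nucleolar RNAs, had a peak on chromosome 12 from 109660726 to 109661117 with 13.7 in OVA and 10.4 in PBS. The peaks of Panct2, Brip1os and Rian were higher in OVA, although the PBS peak of Panct2 covered only 96877850 to 96878478. Kcnq1ot1, with 15.4 in OVA and 26.1 in PBS, and A530020G20Rik, with 11.0 and 15.6, were higher in PBS. The A530020G20Rik peak ran from 121533660 to 121534799 in OVA but from 121534199 to 121534859 in PBS, so its values are not over the same bases. The PBS order began with Kcnq1ot1 and Brip1os and added Gm20628, with 10.2 in PBS and 4.71 in OVA, and 1700052K11Rik, with 22.4 in PBS and 18.5 in OVA.

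An antisense peak was called shared when its blocks overlapped those of any peak of the other list by at least 1 base. Of the OVA antisense peaks, 765 of 1017 (75.2%, 72.5 to 77.8) were shared, against 80.6% of all OVA peaks. Of the PBS antisense peaks, 767 of 928 (82.7%, 80.1 to 85.0) were shared, against 85.5% of all PBS peaks. The list with more peaks had the lower share in both sets. That left 252 OVA and 161 PBS antisense peaks without an overlap in the other list. The best overlapping peak was itself assigned to an antisense transcript for 665 of the 765 (86.9%) and 672 of the 767 (87.6%).

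The lower share lay with peaks called on the antisense gene itself. Of these, 430 of 622 in OVA (69.1%, 65.4 to 72.6) and 423 of 547 in PBS (77.3%) were shared, against 79.8% and 84.8% of all peaks called on their assigned gene. Antisense peaks called on another gene were shared in 335 of 395 cases in OVA (84.8%, 80.9 to 88.0) and 344 of 381 in PBS (90.3%), against 83.6% and 88.1% of all such peaks. Those with no counterpart in their own list had the lowest shares, 60.6% (55.4 to 65.5) in OVA and 68.8% (63.5 to 73.7) in PBS.

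Sharing moved with the p of the peak, as seen in ranges of log10 p chosen after the data were seen. Of the antisense peaks, 28.1% in OVA and 27.7% in PBS had a log10 p above -5, against 20.2% and 21.9% of all peaks. In this weakest range 117 of 286 OVA antisense peaks (40.9%, 35.4 to 46.7) and 43.5% of all OVA peaks were shared. From -5 to -20 the shares were 75.9% (70.7 to 80.5) and 75.0%. From -20 to -100 they were 94.6% (90.8 to 96.9) and 95.6%, and at or below -100 all 213 antisense peaks were shared, beside 99.6% of all peaks. The PBS shares, antisense beside all, were 51.8% (45.7 to 57.8) and 52.6% above -5, and 85.6% (80.8 to 89.4) and 86.2% from -5 to -20. Within each of these ranges the share over all peaks of the list lay inside the interval of the antisense share. All 210 PBS antisense peaks from -20 to -100 were shared (98.2 to 100), beside 98.7% of all peaks. Peaks called on the antisense gene were 36.5% above -5 in OVA, and those called on another gene 14.9%. Above -5, their OVA shares were 41.9% (35.6 to 48.4) and 37.3% (26.1 to 50.0), and from -5 to -20 they were 74.3% (68.1 to 79.7) and 80.2% (70.3 to 87.5). In PBS, in the same order, they were 50.7% (44.0 to 57.5) and 56.0% (42.3 to 68.8) above -5. From -5 to -20 the PBS shares were 86.8% (80.9 to 91.1) and 83.3% (74.3 to 89.6). The intervals of each pair overlapped, and no difference within a pair was tested. The part of read depth in these shares was not tested, since the lists hold no read counts.

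Shared antisense peaks were higher and wider than the rest. Their median fold enrichment was 7.64 in OVA against 3.98 for antisense peaks not shared, and 6.6 against 4.44 in PBS. Over all peaks the medians were 6.5 and 2.87 in OVA and 5.87 and 3.45 in PBS. The summed block width was a median of 361 bp for shared OVA antisense peaks and 150 bp for the others, and in PBS 333 and 122 bp. For all peaks these widths were 391 and 122 bp in OVA and 362 and 122 bp in PBS. A wider peak has more bases that can meet a peak of the other list, so the definition of a shared peak favours wide peaks. Of the antisense peaks with a fold enrichment under 2, 19 of 65 OVA peaks (29.2%) and 38 of 61 PBS peaks (62.3%) were shared. The share over all peaks under 2 is not given here, so these values are not read as a trait of antisense peaks. Antisense peaks with more than 1 block were shared in 85.5% of cases in OVA and 94.2% in PBS, those with 1 block in 72.1% and 79.7%. Shares of all peaks by block number are likewise not given, so the same limit holds for these values.

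The antisense peaks belonged to 651 genes in OVA and 599 in PBS, with 744 in either list and 506 in both. The genes in both lists were 77.7% (74.4 to 80.8) of the OVA genes and 84.5% (81.4 to 87.2) of the PBS genes. Over all assigned genes of the lists the shares were 87.5% and 91.0%. Of the 145 genes seen only in OVA, 118 had a single peak there, as had 81 of the 93 seen only in PBS. For 26 of the 145 and 22 of the 93 an antisense peak overlapped a peak of another assigned gene in the other list, so the bases were in both lists under different gene names. No overlap was found for 119 OVA genes and 71 PBS genes. The median fold enrichment of genes' peaks seen only in OVA was 4.32, against 7.11 for peaks of genes in both lists, and in PBS the medians were 5.55 and 6.11.

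Most antisense genes had 1 peak, 410 of 651 in OVA (63.0%, 59.2 to 66.6) and 393 of 599 in PBS (65.6%, 61.7 to 69.3). Over all genes 50.1% and 51.0% had 1 peak. At least 4 peaks were found on 26 OVA and 25 PBS antisense genes. By name, 442 of the OVA genes were Gm numbers, 142 were Rik clone names and 51 ended in os, for opposite strand, or in os and a digit. The PBS counts were 401, 128 and 51. RefSeq held an entry under the same symbol for 300 OVA genes, 296 of them as long non-coding RNAs, and for 280 PBS genes, 276 of them as long non-coding RNAs. Most assigned transcripts lay over a coding gene. Of 688 OVA transcripts, 590 (85.8%) overlapped a RefSeq protein-coding gene, 459 of them on the opposite strand. Of 635 PBS transcripts, 555 (87.4%) overlapped such a gene, 428 of them on the opposite strand.

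Among chromosomes 1 to 19 and X, antisense peaks were the smallest part of the peaks on X, where they were 7 of 702 in OVA (0.997%) and 6 of 691 in PBS (0.868%). They were the largest part on chromosome 18, with 44 of 896 (4.91%) and 42 of 862 (4.87%). Most in number were those of chromosome 7, with 95 in OVA and 85 in PBS. The lowest and highest chromosomes were the same in both lists.

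Exons held most antisense peaks by the deposited region label. Exon was given for 718 OVA peaks (70.6%, 67.7 to 73.3) and 645 PBS peaks (69.5%), against 35.7% and 35.9% of all peaks. The 3′ UTR was given for 281 (27.6%, 25.0 to 30.5) and 266 (28.7%), against 52.7% of all peaks in each list, and the 5′ UTR for 18 (1.77%) and 17 (1.83%), against 11.6% and 11.4%. The label followed the called gene. All 622 OVA peaks called on the antisense gene, and 546 of the 547 in PBS, were exon peaks, as a non-coding transcript has no UTR. Antisense peaks called on another gene were 3′ UTR peaks in 71.1% of cases in OVA and 69.6% in PBS, against 72.3% and 71.5% of all peaks called on another gene.

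The fold enrichment of antisense peaks had a median of 6.2 (quartiles 3.34 and 12.1) in OVA and 6.01 (3.31 and 11.0) in PBS. All peaks had medians of 5.59 (2.91 and 11.4) and 5.44 (2.86 and 10.9). Antisense peaks called on another gene had higher medians, 7.16 in OVA and 6.82 in PBS, than those called on the antisense gene, 5.8 and 5.68. A fold enrichment of at least 2 was reached by 952 OVA peaks (93.6%) and 867 PBS peaks (93.4%), against 89.9% and 89.4% of all peaks. The deposited false discovery rate was under 0.05 for 993 OVA peaks (97.6%) and 903 PBS peaks (97.3%), against 98.1% and 97.8% of all peaks. Antisense peaks were thus of a like height to all peaks, but their p was weaker, with a median log10 p of -13.1 in OVA and -15.0 in PBS against -24.0 and -21.4.

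Antisense peaks were narrower than all peaks, with a median summed block width of 273 bp in OVA and 272 bp in PBS against 330 and 328 bp. Those called on the antisense gene had 212 and 211 bp, and those called on another gene 422 bp in each list. A single block made up 782 OVA peaks (76.9%, all peaks 75.9%) and 738 PBS peaks (79.5%, all peaks 78.6%). The most blocks in an antisense peak were 8 in OVA and 6 in PBS. The start of the assigned transcript lay inside 257 OVA peaks (25.3%, all peaks 14.9%) and 252 PBS peaks (27.2%, all peaks 14.4%).

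Kcnq1ot1, a paternally expressed antisense RNA that silences genes of the Kcnq1 imprinted domain, had the most peaks, 9 in OVA and 12 in PBS. All were called on Kcnq1ot1 itself, and 8 in each list were shared. The tallest lay on chromosome 7 from 143258070 to 143259361 in OVA, with a fold enrichment of 15.4 and a log10 p of -300, and reached 26.1 and -430 in PBS. The next by p in OVA, from 143242295 to 143242926, had 5.44, and its PBS counterpart 7.9. A peak from 143295138 to 143295499, with the same bounds in both lists, had 2.32 in OVA and 3.38 in PBS. Of the 8 shared OVA peaks of Kcnq1ot1, 6 had the higher value in PBS, but not all by much. That from 143246014 to 143246135 was nearly level, at 2.6 in OVA and 2.75 in PBS, as was that from 143273725 to 143273846, at 2.36 and 2.39. The other 2 were higher in OVA, with 2.36 against 1.71 from 143238396 to 143238487 and 2.28 against 1.97 from 143247303 to 143247484. The OVA peak without an overlap, from 143221961 to 143222052, had 5.9 at a log10 p of -2.53. The 4 PBS peaks without an overlap had log10 p values from -1.7 to -6.44.

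The next genes by number of peaks were mostly called on a coding neighbour. All 7 peaks of Gm17103 in each list were called on Arhgap31, the gene of a GTPase-activating protein for Rac and Cdc42, on chromosome 16 between 38598339 and 38618215. Their median fold enrichment was 4.21 in OVA and 3.92 in PBS, and all 7 were shared. The tallest Gm17103 peak ran from 38601154 to 38603281 in OVA, with 10.9, and had 11.1 in PBS. All 5 OVA and 6 PBS peaks of Gm27206 on chromosome 2 were called on Zhx3, a zinc finger and homeobox repressor gene, with medians of 10.6 and 5.84. These medians are not over like peaks, since the Gm27206 peak from 160779506 to 160780736 with 10.6 in OVA met PBS peaks with 9.02 and 2.67. All 6 OVA and 5 PBS peaks of 6430562O15Rik on chromosome 13 were 3′ UTR peaks called on Map1b, which codes for a microtubule-associated protein, with medians of 3.36 and 5.79. These medians are not over like peaks either, since the OVA peak from 99424770 to 99424831, with 1.7, had no PBS overlap. The called gene in these cases was on the strand of the antisense transcript. Gm37446 differed, with 5 of its 6 OVA peaks and 4 of its 5 PBS peaks called on itself and the other on Pcdhb12, a protocadherin beta gene on the opposite strand of chromosome 18. The Gm37446 peak from 37437156 to 37437547 had 17.5 in OVA, where the Pcdhb12 peak over it had 18.6. In PBS these were 14.7 and 30.6, but the Pcdhb12 peak there ran from 37437137 to 37437940, so these values do not cover the same bases. D430036J16Rik had as many peaks over both lists, 11, as Gm27206, 6430562O15Rik and Gm37446, and came after them by summed log10 p. Of its peaks, 2 in each list were called on itself and the others on Htr1b, a serotonin receptor gene.

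The highest antisense fold enrichment in OVA was 128, at Gm11131 on chromosome 17 from 35377020 to 35377467. The peak was called on Gm11131 itself and had the same bounds in PBS, at 36.5. Its log10 p was -43.0 in OVA and -36.8 in PBS. The other 3 OVA peaks assigned to Gm11131 were lower than the PBS peaks they overlapped, with 3.25 against 10.5, 2.29 against 4.9 and 3.02 against 4.9. The PBS peak with 10.5 was not among the antisense peaks of Gm11131. That with 4.9 was the same peak in both cases and was called on H2-Q4, as was the OVA peak with 3.02. Over the OVA peak with 2.29, the PBS peak called on Gm11131 itself had 3.41. The transcript overlaps H2-Q4, a non-classical class I gene of the major histocompatibility complex. Next came Gm44780 on chromosome 7 from 44357097 to 44357816, called on the postsynaptic scaffold gene Shank1, with 86.3 in OVA and 74.0 in PBS. Gm36279 had a peak on chromosome 17 from 84185216 to 84186653 with 69.3 in OVA and 64.6 in PBS. It was called on Zfp36l2, whose product binds AU-rich elements and promotes mRNA decay, on the opposite strand. AI507597 had 66.7 in OVA and 33.6 in PBS on chromosome 4 from 141614239 to 141614627, called on Tmem82. Gm31641 had 62.6 in OVA and 67.6 in PBS on chromosome 16 from 95359676 to 95361200, called on Erg, a transcription factor gene of endothelial cells. Of these 5 OVA peaks, 4 were called on another gene. The peaks of Gm44780 and Gm31641 lay upstream of the start of the assigned transcript, outside its span, with the called gene on the same strand. The peaks of Gm36279 and AI507597 overlapped the start of the assigned transcript, with the called gene on the opposite strand.

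The highest antisense fold enrichment in PBS was 122, at 4932702P03Rik on chromosome 13 from 24900340 to 24900880, called on D130043K22Rik. The overlapping OVA peak had 37.0. The PBS peak of 4932702P03Rik lay upstream of the assigned transcript's start, with D130043K22Rik on the same strand. Gm44780, Gm31641 and Gm36279 followed with the values above. The last of the 5 was Gm16685, called on itself, on chromosome 3 from 7688704 to 7689117, with 60.7. Its transcript overlaps Il7, the gene of a cytokine needed for lymphocyte development. The overlapping OVA peak had 14.8, but ran from 7663629 to 7689412 and overlapped 2 PBS peaks of Gm16685, the other with 3.62, so these values do not describe the same bases.

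The lowest antisense p in OVA was that of the Gm31641 peak on Erg, listed as 0, so that its logarithm is not finite. Gm11175 followed, with a peak called on Jund on chromosome 8 from 70699484 to 70700408, a fold enrichment of 17.7 and a log10 p of -6290, and 17.8 in PBS. Kcnmb4os1 had a peak on chromosome 10 from 116387497 to 116388277 with 13.5 at -3950 in OVA and 14.2 at -10600 in PBS. Although its name refers to Kcnmb4, a potassium channel subunit gene, the peak was called on Ptprb, an endothelial receptor phosphatase gene. Ptprb is on the strand of Kcnmb4os1, and the peak lay upstream of the assigned transcript's start. Gm17146 had 29.0 at -2870 in OVA and 34.1 in PBS on chromosome 3 from 88729165 to 88731049, called on the Ras-like GTPase gene Rit1. Gm49643 was the only one of the 5 called on itself, on chromosome 16 from 95297355 to 95301457, with 10.8 at -2830 in OVA and 9.58 in PBS. These 5 OVA peaks of lowest p were therefore mostly called on coding genes. Their fold enrichment was close to that of the PBS peaks they overlapped.

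Antisense peaks without an overlap in PBS were led in OVA by 9330171B17Rik, on chromosome 7 from 79694326 to 79694956, with a fold enrichment of 15.9 and a log10 p of -74.7. Another peak of this gene, from 79695045 to 79695675, also ranked among the 5 lowest p values, with 7.19 and -35.1. Both were called on Ticrr, a gene needed for the start of DNA replication. Ticrr is on the strand of 9330171B17Rik, and both peaks lay upstream of the start of the assigned transcript, outside its span. Gm20633 had 27.9 at -71.2 on chromosome 3 from 96246210 to 96246718, called on Gm20634 as a 5′ UTR peak. Gm17023 had 5.45 at -36.5 on chromosome 8 from 13073506 to 13074137, called on Proz, the gene of the plasma protein Z. That peak likewise lay upstream of the assigned transcript's start, with Proz on the same strand. The only one called on its assigned gene was 4930430E12Rik on chromosome 4 from 6353637 to 6355319, with 38.0 at -35.9.

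Antisense peaks of PBS without an overlap in OVA had weaker p values. Gm15475 led with a fold enrichment of 4.15 and a log10 p of -18.9 on chromosome 6 from 84095589 to 84095859. E030013I19Rik had 3.22 at -18.7 on chromosome 2 from 12301154 to 12301365, and 5430405H02Rik 4.51 at -16.0 on chromosome 2 from 156862693 to 156862933. These 3 were called on the antisense gene. Kcnmb4os1 had a peak called on Kcnmb4, with 17.3 at -11.8 on chromosome 10 from 116417860 to 116418250, apart from its peaks on Ptprb. Gm49179 had 3.57 at -10.4 on chromosome 14 from 118874297 to 118874507, called on the tight junction gene Cldn10. The Gm49179 peak lay upstream of the assigned transcript's start, with Cldn10 on the same strand. No mouse-level values exist in the lists, so whether these peaks were absent from each mouse of the other group was not tested.

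Genes whose name ends in os or in os and a digit, or whose description names an opposite strand or antisense RNA (Airn, AC109619 and CT030740), carried 91 OVA peaks on 54 genes and 87 PBS peaks on 54 genes, with 44 genes in both lists and 64 in either. Of these peaks, 70 in OVA (76.9%) and 68 in PBS (78.2%) were shared, against 80.6% and 85.5% of all peaks. The median fold enrichment was 5.66 in OVA and 5.53 in PBS. Most were called on the opposite-strand gene itself, 66 in OVA and 61 in PBS. The named partner had a called peak of its own somewhere for 43 of 52 partners in OVA (82.7%) and 45 of 52 in PBS (86.5%). Of all 21900 RefSeq protein-coding genes, with those not expressed in lung included, 52.5% had a called peak in OVA and 51.0% in PBS. For 18 partners in each list a peak called on the partner lay at the antisense peak itself, among them in both lists Hoxb3, Irx3, Plet1, Prss23, Slfn5 and Tmem51. Besides Kcnmb4os1, the lowest p values belonged to Tmem51os1 and Brip1os in OVA and to Prss23os in PBS. The Tmem51os1 peak, called on Tmem51 on chromosome 4 from 142031080 to 142084126, had 17.9 in both lists. Prss23os had a peak called on Prss23 with 11.3 in PBS and one called on itself with 11.5.

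Of 9 names of imprinted antisense RNAs searched, 3 had a peak. Rian, an imprinted RNA described above, was not among the names and is not in the counts that follow. Nor is Igf2os, named for the imprinted growth factor gene Igf2, which had a peak with 13.3 in PBS and none in OVA. Besides Kcnq1ot1, Airn, which silences Igf2r on the paternal chromosome, had a peak on chromosome 17 from 12815201 to 12815993 with a fold enrichment of 5.22 in OVA and 3.9 in PBS. Another Airn peak, from 12814635 to 12814785, was in OVA alone, with 1.91. Snhg14, a host of small nucleolar RNAs that runs antisense to Ube3a, had a peak on chromosome 7 from 59970317 to 59973577 with 13.3 in OVA and 14.7 in PBS. All 12 OVA and 14 PBS peaks of these RNAs were called on the antisense gene. Of each, 10 were shared (83.3% and 71.4%), against 80.6% and 85.5% of all peaks. Their median fold enrichment was 2.48 in OVA and 3.06 in PBS, under the medians of all antisense peaks, and most of them were peaks of Kcnq1ot1.

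Of the antisense RNAs of the Hox clusters searched by name, only Hoxb3os had a peak. Hox genes code for transcription factors that set position along the body axis. On chromosome 11, the Hoxb3os peak from 96345832 to 96346489 had 5.9 in OVA beside 5.99 for a peak called on Hoxb3 over the same bases. In PBS the pair had 7.01 and 5.56. The Hoxb3os peak from 96353201 to 96353827 had 4.11 beside 4.44 for Hoxb2 in OVA, and 4.33 beside 4.19 in PBS. Each Hoxb3os peak thus had a coding counterpart on the other strand.

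Of 25 lung transcription factor genes searched as partners by name, only Tbx3, a T-box factor of lung development, had an antisense RNA named for it with a peak. Tbx3os1 had peaks on chromosome 5 from 119574690 to 119575079 and from 119575317 to 119575617 in OVA, with 3.75 and 8.43. The overlapping PBS peaks had 5.57 and 7.56. A PBS peak from 119570570 to 119570750 had 2.59 and no OVA overlap. All were called on Tbx3os1 itself.

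Immune genes searched as partners by name gave Il1bos and Tnfsf13os. Il1bos is named for the gene of the inflammatory cytokine interleukin 1 beta and had a peak on chromosome 2 from 129374794 to 129375063 with 29.8 and a log10 p of -9.11 in OVA. The PBS peak inside it, from 129374913 to 129374973, had 5.59 at -3.39. Another OVA peak of Il1bos, from 129374585 to 129374646, had 8.21 at -2.07 and no PBS overlap. Tnfsf13os, named for the gene of the B cell ligand APRIL, had 1.51 in OVA on chromosome 11 from 69690930 to 69690991 and no PBS peak. Il1bos thus had the higher value in OVA, but its PBS peak was much narrower, so the values do not describe the same bases.

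A wider search, added after the data were seen, took antisense peaks whose assigned transcript overlaps an immune gene in RefSeq. It found 26 OVA peaks on 15 genes and 24 PBS peaks on 15 genes, with 13 genes in both lists. Of these peaks, 24 in OVA (92.3%) and 22 in PBS (91.7%) were shared, against 80.6% and 85.5% of all peaks. That difference was not tested. Their median fold enrichment was 6.25 and 6.12. Gm36043 overlaps Cd274, the gene of the checkpoint ligand PD-L1, on chromosome 19. Its peak from 29384095 to 29385791, called on Cd274, had 11.4 in OVA and 7.05 in PBS. The Gm36043 peak from 29378519 to 29378880, called on itself, had 5.66 in OVA, and the PBS peak over it had 4.54. All 3 Gm36043 peaks of OVA were higher than their PBS overlaps, the third being 2.84 against 1.82. Gm16015 overlaps Cd38, the gene of an NAD-consuming surface enzyme, and its peak called on Cd38 had 2.32 in OVA and 3.28 in PBS. Gm48719 overlaps Cd3e, a subunit gene of the T cell receptor complex, and its peak called on Cd3e had 2.41 in OVA, where the PBS peak over it had 3.4. Gm16364 overlaps Traf3ip2, an adaptor gene of interleukin 17 signalling, and had 7.79 in OVA and 8.7 in PBS at a peak called on E130307A14Rik. The lowest p values belonged to peaks called on genes with no immune name. Gm38165, which overlaps Il17b, had 34.1 in OVA and 33.9 in PBS at a peak called on Pcyox1l, and 2310044K18Rik, which overlaps Il16, had 12.3 and 11.0 at a peak called on the sterol carrier gene Stard5. Both peaks lay upstream of the start of their assigned transcript, with the called gene on the same strand. The same search for the lung transcription factors found no peak, but it did not take in every antisense peak at these genes. An OVA peak called on Gm37587, on chromosome 1 from 4496937 to 4497146, overlapped a peak called on Sox17, a factor searched. Sox17 is on the opposite strand, and the values were 2.47 for Gm37587 and 2.52 for Sox17.

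Fold enrichments were then set side by side for the OVA antisense peaks that overlapped a PBS peak, with a false discovery rate under 0.05 in both, for 754 pairs. The median ratio of OVA to PBS was 1.07 (quartiles 0.804 and 1.42), and over all 21736 pairs it was 1.08. OVA was at least 2 times PBS in 73 antisense pairs (9.68%, 7.77 to 12.0), against 7.49% of all pairs. PBS was at least 2 times OVA in 64 (8.49%, 6.7 to 10.7), against 6.65% of all pairs. The remaining 617 pairs lay within 2 times. The shares past 2 times were higher for antisense pairs than for all pairs in both directions, a difference that was not tested. Pairs called on the antisense gene spread more, with 58 (13.7%) and 46 (10.9%) of 422 past 2 times, than pairs called on another gene, with 15 (4.52%) and 18 (5.42%) of 332. No test was run on these pairs, since each list gives 1 value per peak.

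Among the 653 pairs in which both peaks were antisense, the largest ratio of OVA to PBS was 8.58, at A830035O19Rik on chromosome 9 from 45955345 to 45955968, with 23.6 in OVA and 2.75 in PBS. The PBS peak of A830035O19Rik began only at 45955671, so these values are not over the same bases. The next belonged to D030025P21Rik on chromosome 12 from 84876697 to 84876998, with 31.8 and 4.79. A near-identical OVA peak of D030025P21Rik, from 84876695 to 84876995, had 30.8 and met the same PBS peak, so it adds no separate pair. Each of these peaks had a log10 p between -3.82 and -9.8, among the weaker of the lists.

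At the other end, the smallest ratio was 0.117, where a Gm11175 peak from 70699481 to 70699689 with 2.08 in OVA shared 90 bases with the Jund peak of 17.8 in PBS. That pair joins different called genes and only part of the bases. Irx3os came next, named for the homeobox gene Irx3, with 6.67 in OVA on chromosome 8 from 91805363 to 91805632 and 53.8 in PBS, a ratio of 0.124. The PBS peak there ran from 91805229 to 91805662 and was the wider, so these values are not over the same bases. Other peaks of Irx3os differed less and in both directions. The Irx3os peak from 91803917 to 91804545 had 4.82 in OVA and 6.88 in PBS, and that from 91806257 to 91806615 had 11.9 and 7.04. Gm9934, called on Fam181b on chromosome 7 from 93080731 to 93080971, had 4.11 in OVA and 30 in PBS, a ratio of 0.137, but its PBS peak reached to 93081747 and was the wider. Among pairs called on the same gene the third smallest was Sp3os, named for the transcription factor gene Sp3, with 3.08 in OVA and 19.7 in PBS, a ratio of 0.156. The Sp3os peaks were weak, with a log10 p of -2.84 in OVA and -5.81 in PBS. They began at 72979482 in OVA and at 72979423 in PBS, so they too differ in their bases.

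Some antisense peaks covered the start of their transcript, so the bases there could be read from RefSeq promoter windows of GRCm38.p6, which end 50 bases after a gene's start. Of the 744 antisense genes, 274 had a window, and for 23 the 50 bases lay wholly inside an antisense peak of the same gene. These were searched, by a choice made after the data were seen, for GGACT as well as GGACA and AAACT, forms of the motif in which m6A is made. On the transcript strand 4 of the 23 starts held a motif (17.4%, 6.98 to 37.1), against 14.1% of the first 50 bases of all 32851 windows and 15.6% of those of long non-coding RNAs. On the other strand 3 did (13.0%, 4.54 to 32.1), against 13.8% of all windows and 14.1% of those of long non-coding RNAs. Over all windows GGACT was found in 5.76%, GGACA in 5.4% and AAACT in 3.61% on the transcript strand. Of the 23 starts under antisense peaks, 1 held GGACT, 1 held GGACA and 3 held AAACT. So few starts give wide intervals, and no difference from other starts was tested. A match is not a site, and the lists do not place m6A at a base.

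Of the starts with a motif on the transcript strand, 3 are shown to give the bases under those peaks, 30 bases of each, 5′ to 3′ on the transcript strand, with 1 motif per sequence in capitals. 1700055D18Rik is read on the plus strand at chr4:45012810-45012839, under an OVA peak with a fold enrichment of 9.24. A PBS peak with 9.87 overlapped that OVA peak. Plet1os is read on the minus strand at chr9:50504756-50504785, under its own peak with 5.02 in OVA and 3.64 in PBS and a peak called on Plet1, a surface protein gene, with 7.38 and 6.45. The first 50 bases of Plet1os also held AAACT, outside the bases shown. E030013I19Rik is read on the plus strand at chr2:12301266-12301295, under the PBS peak with 3.22. The peak of E030013I19Rik had no OVA overlap.
1700055D18Rik: agtctgaaGGACAggtgacttcctctcgct
Plet1os: acttcaggttacacgcaggatggatGGACT
E030013I19Rik: gcgcggtccttattttaAAACTgacctgag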

How the data were processed

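MeRIP-seq IP and input libraries of 3 OVA and 3 PBS mice underlie the peak lists. Per the methods and the labels, the authors trimmed reads with FASTP, aligned them with HISAT2, used exomePeak for peak calling and ChIPseeker for annotation. The deposited scores are the log10 p and log10 false discovery rate of each peak, and the deposited ratio is its fold enrichment of IP over input. The weakest log10 p of -1.3 in OVA and -1.31 in PBS fits base 10. How the 3 mice were combined is not given in the sources used here. Read counts per peak are not in the lists, so the depth at a peak is unknown and fold enrichments have no interval.

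Every peak was kept, including 4 repeated entries among OVA antisense peaks and 5 among PBS antisense peaks. Peaks were compared between the lists by their exon blocks, with an overlap of at least 1 base, and shares were given 95% Wilson intervals. No test was run, as each list is 1 value set per group. Strand and type of called genes came from the lists and RefSeq. The strands matched for 17567 of 17567 gene entries, and 97.7% of OVA and 97.8% of PBS peaks called on RefSeq protein-coding genes overlapped the gene's GRCm38.p6 position. For antisense peaks called on a RefSeq gene this held for 668 of 720 in OVA and 606 of 653 in PBS, 92.8% each. In 1493 of 1493 overlapping windows of opposite strands the bases matched.

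Members and gene lists were chosen with earlier results of these data known. Named peaks were the 5 highest fold enrichments per list, the 5 genes with most peaks (ties by summed log10 p), the 5 lowest p values without an overlap per list, the 5 lowest p values of OVA, all imprinted and Hox members, the 3 lowest p values of the other lists, and the 3 highest and 3 lowest ratios among antisense pairs, with a false discovery rate under 0.05 for fold enrichments and ratios. Other names were chosen after their values were seen. Alternatives were a false discovery rate under 0.05, a fold enrichment of at least 2, peaks called on the assigned gene, other definitions of a shared peak and, added after the data were seen, repeated entries counted once. A motif search in the peaks was not run, as it needs genome sequence. Scripts were tested on simulated data and used Python 3.11.15, numpy 2.4.6, pandas 2.3.3 and scipy 1.17.1.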

Additional observations from a re-analysis of the deposited data

How the results depend on the processing

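Of 46 settings compared with the values reported, 38 stayed within the interval of the value or within 1.5 times the count, and 8 moved. Keeping only peaks called on the antisense gene left 622 of 1017 in OVA and 547 of 928 in PBS, by construction, since the others are called on another gene. The share of antisense peaks overlapping the other list, 75.2% in OVA and 82.7% in PBS, depended on the definition. It was 71.1% and 78.7% when only antisense peaks of the other list counted, 62.1% and 68.3% when at least 50% of both peaks had to overlap, and 9.73% and 10.7% when start and end had to be identical. Each of these asks for more, so a lower share follows from its construction. With genomic spans in place of blocks it was 76.0% and 83.4%. Counting repeated entries once, an alternative added after the data were seen, left 1013 and 923 peaks. Thresholds on the false discovery rate or fold enrichment moved no count of genes, share of another called gene or region share. The median fold enrichment, tried with the false discovery rate and with peaks called on the assigned gene only, did not move.

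No paired analysis was possible because the deposited lists hold no values of single mice, and leaving out each replicate could not be run for the same reason. Read counts per peak are not in the lists, so peaks at low depth cannot be told from peaks at high depth. Without strand in peak calling, opposite-strand genes cannot be told apart.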
